A study of Mus musculus with 17 samples.

Results

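Acute leukemias were grown in mice from hematopoietic progenitors transformed with the oncogenes Myc and Bcl2, and gene expression was measured on Affymetrix 3' arrays. The change described here is the one common to leukemias of 2 origins. They started from DN2 cells (CD4 and CD8 double negative 2 cells, early T-cell progenitors of the thymus) or from GMP (granulocyte-macrophage progenitors of the bone marrow). The 10 leukemia arrays labelled DN2-derived (5) or GMP-derived (5) were compared with the 4 healthy arrays of DN2 (2) and GMP (2), each leukemia group against its own cell of origin, and the 2 differences were averaged. These are 14 of the 17 arrays of the series. The other 3 hold leukemias labelled as derived from LSK cells (marrow progenitors upstream of both), which have no healthy counterpart and were read only as a check. A gene belonged to the shared change if it differed in the same direction and by at least 2-fold in both origins. Of 11449 genes tested, 888 did (7.76%), 303 of them higher and 585 lower in leukemia.

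The donors of all groups were wild-type C57/Bl6 mice, and no donor age is stated. The transformed cells were injected into irradiated recipients (4 to 8 weeks old, 4.5 to 6 Gy), and myeloid cells positive for CD11b and Gr1 and negative for CD3, CD4 and CD8 were sorted from the spleens of mice with overt leukemia. The healthy cells carried no transgene and came from thymus or marrow. Leukemia, residence in the spleen, passage through an irradiated host and the stage of the cells therefore differ together between leukemia and healthy arrays and cannot be told apart. The labels do not say that the arrays of a group came from separate mice, so p-values measure only the spread between these samples. Each array is of a bulk sample, in which fewer cells of a type and less RNA per cell cannot be told apart.

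Myc proteins are transcription factors that, paired with Max, bind the DNA sequence CACGTG and drive growth and division, while proteins of the Mxd family compete with them for Max. High Myc activity also induces Cdkn2a, which encodes Arf, and through it p53, whose targets stop the cycle or start apoptosis. Bcl2 blocks apoptosis by binding BH3-only proteins, such as those encoded by Bcl2l11 and Bbc3, which is why the pair transforms together in blood cells. DN2 cells and GMP are both dividing progenitors that carry the stem cell factor receptor Kit and lose it as they mature.

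All values below are log2 expression as deposited, and differences are leukemia minus healthy on that scale. Array medians lay between 3.80 and 3.86 and levels near them are background, so a difference that reaches down to that level is compressed. Arrays of a group correlated across genes at 0.939 to 0.984 (DN2-labelled leukemia), 0.931 to 0.990 (GMP-labelled leukemia), 0.997 (healthy DN2) and 0.994 (healthy GMP), and genes are not independent replicates. The test pools the spread of all 4 groups, although the healthy pairs varied less. Several leukemia arrays went against their label or stood apart. Cd3e, whose CD3 product was an exclusion marker of the sort, was 7.79 to 9.06 in the DN2-labelled leukemia arrays, against 5.56 and 5.48 in healthy DN2. Itgam, which encodes CD11b, reached 7.17 and 7.38 in DN2-labelled leukemia arrays 1 and 3, while the other 3 arrays of that group held 3.24 to 3.47. GMP-labelled leukemia arrays 2 and 4 had Mpo, myeloperoxidase of primary granules, at 13.34 and 13.36, against 7.71 to 8.87 in arrays 1, 3 and 5. Array 2 of each leukemia group had the Y-linked gene Eif2s3y at 10.05 and 9.89, and every other one of the 14 arrays had it at 2.69 to 3.03. Without DN2-labelled leukemia arrays 2, 4 and 5 the shared change counted 907 genes, without GMP-labelled leukemia arrays 2 and 4 it counted 1015, and without the pair with Y-linked signal it counted 920. Of the 888 genes, 801, 867 and 830 stayed in it under these 3 settings.

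The average difference was called for 4245 genes, or 37.1% of those tested, 1686 higher (14.7%) and 2559 lower (22.4%), by limma with Benjamini-Hochberg adjustment over all genes. At least 2-fold, 1025 genes were higher (8.95%) and 1447 lower (12.6%) in DN2-labelled leukemia, and 1145 were higher (10%) and 1351 lower (11.8%) in GMP-labelled leukemia. The 303 shared higher genes (2.65%) were 29.6% of the DN2 list and 26.5% of the GMP list. The 585 shared lower genes (5.11%) were 40.4% of the DN2 list and 43.3% of the GMP list. Another 171 genes (1.49%) passed 2-fold in both origins in opposite directions. Alone, the DN2 change was called higher for 10.9% and lower for 15% of all genes, and the GMP change for 9.74% and 14.8%. Both origins passed the test for 568 shared genes (4.96% of all tested), 181 of them higher (1.58%) and 387 lower (3.38%). Since the 2-fold limit and the test read the same differences, these counts describe the members and do not support them.

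The shared change reached 4-fold in both origins for 75 higher and 114 lower genes, and 8-fold for 25 and 38. Leukemia and healthy arrays did not overlap in either origin for 234 of the 303 shared higher genes, against 6.38% of all genes tested. For the shared lower genes this held for 539 of 585, against 13.5%. The 2-fold rule read these same arrays, so this separation and the median levels that follow describe the members and do not support them. The median level over the shared higher genes was between 7.98 and 8.51 in the DN2-labelled leukemia arrays, against 5.52 and 5.47 in healthy DN2. In the GMP-labelled leukemia arrays it was 8.95, 7.98, 8.72, 7.72 and 8.87, against 6.01 and 5.65 in healthy GMP. Over the shared lower genes it was 4.77 to 5.90 in DN2-labelled leukemia and 5.17, 6.08, 5.39, 6.53 and 5.52 in GMP-labelled leukemia, against 7.83 to 7.95 in the 4 healthy arrays. GMP-labelled leukemia arrays 2 and 4 lay nearest to the healthy level in both directions within their group. Over all genes tested the median difference was 0.01 in DN2 and −0.13 in GMP. At the limit itself, Marf1 and Pafah1b1 lay just inside with smaller differences of 1.01 each, and Dbndd2 and Gnal just outside with 1.00 and 0.99. Among falls Ahcy and Pgrmc1 lay just inside and Sgo2a and Ttll5 just outside, each within 0.01 of the limit.

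**Figure D1:**
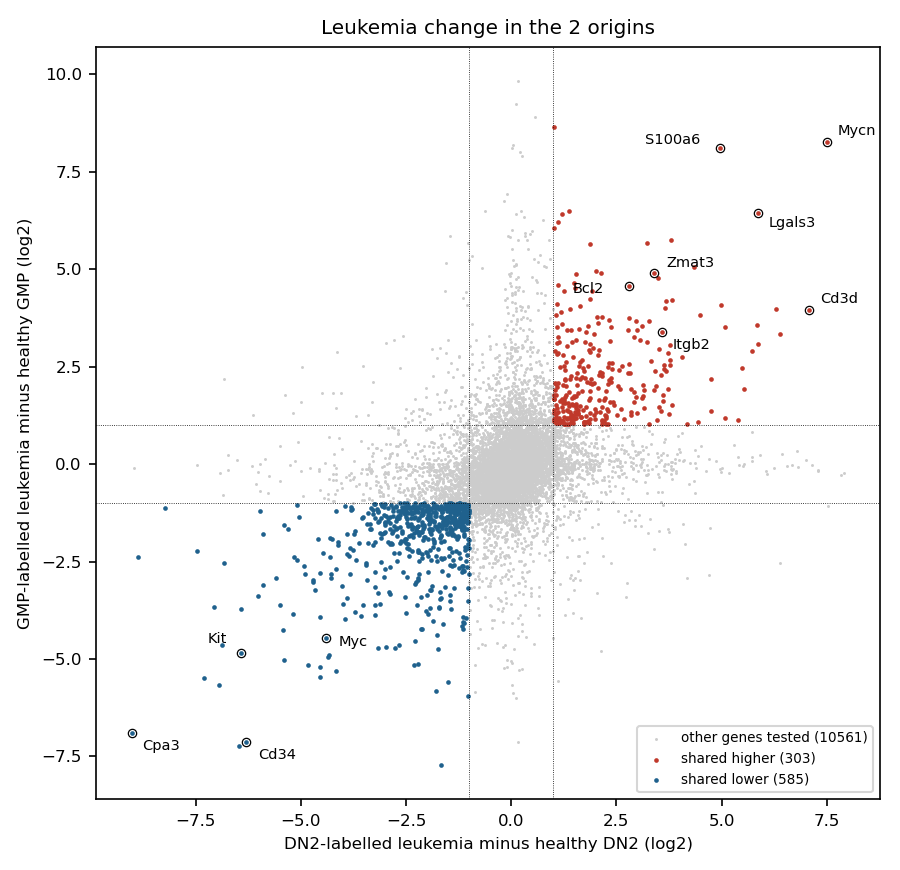
Difference between leukemia and healthy cells in the GMP origin (vertical axis, log2) against that in the DN2 origin (horizontal axis, log2), with 1 point per gene tested and dotted lines at 2-fold. The 303 shared higher genes lie in the upper right, led by Mycn at 7.51 and 8.28, and the 585 shared lower genes in the lower left, with Cpa3 at −9.01 and −6.91.

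The transgene labels were checked first. Myc, the founding member of the family, was among the largest shared falls, while its relative Mycn had the largest shared rise, read from 1 of its 3 probe sets. Myc was 5.62, 5.93, 5.48, 5.58 and 6.35 in the DN2-labelled leukemia arrays, against 10.10 and 10.28 in healthy DN2. It was 6.49, 5.99, 5.68, 5.64 and 6.41 in the GMP-labelled leukemia arrays, against 10.65 and 10.37 in healthy GMP. All 10 leukemia arrays lay below every healthy array, and the average difference was −4.43 ± 0.20 (SE, n = 10 and 4, limma adjusted p = 4.62e-09). Mycn was 11.58, 12.10, 11.76, 11.94 and 11.99 in DN2-labelled leukemia, against 4.21 and 4.52 in healthy DN2. It was 13.15, 12.79, 12.28, 12.06 and 12.45 in GMP-labelled leukemia, against 3.96 and 4.58 in healthy GMP. The groups did not overlap, and the average difference was 7.89 ± 0.19 (SE, limma adjusted p = 1.66e-11). The labels write Myc, and do not say which family member was introduced.

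The 3 Mycn probe sets did not move together. The values above are of 1425923_PM_at, which has the highest mean over the arrays and stood for the gene. Probe set 1417155_PM_at was 2.87 to 3.05 in DN2-labelled leukemia, against 8.03 and 8.60 in healthy DN2, and 2.63 to 2.89 in GMP-labelled leukemia, against 3.58 and 3.09 in healthy GMP. It was thus high in healthy DN2 and at background in every leukemia array, a fall of 5.36 ± 0.18 in the DN2 origin (SE, limma adjusted p = 2.75e-10 over 18527 probe sets). The third, 1425922_PM_a_at, stayed between 3.21 and 4.17 in all 14 arrays. Bcl2 showed the same split. Probe set 1422938_PM_at, which stood for the gene, was 9.25, 9.94, 9.51, 9.79 and 9.90 in DN2-labelled leukemia, against 6.99 and 6.78 in healthy DN2, and 10.08 to 11.53 in GMP-labelled leukemia, against 6.51 and 5.89 in healthy GMP. The average rise was 3.68 ± 0.24 (SE, limma adjusted p = 1.37e-07). The second, 1457687_PM_at, was 5.27 to 6.98 in DN2-labelled leukemia, against 9.84 and 9.44 in healthy DN2, and 3.61 to 4.00 in GMP-labelled leukemia, against 8.91 and 8.62 in healthy GMP, an average difference of −4.18 ± 0.28 (SE, limma adjusted p = 2.14e-07). With the probe sets averaged, Bcl2 had an average difference of −0.25 (adjusted p = 0.233) and Mycn one of 1.53 (adjusted p = 5.29e-08), with 0.50 in DN2 and 2.56 in GMP, so that neither was in the shared change. Whether any of these probe sets lies within a transgene was not analysed here.

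**Figure D2:**
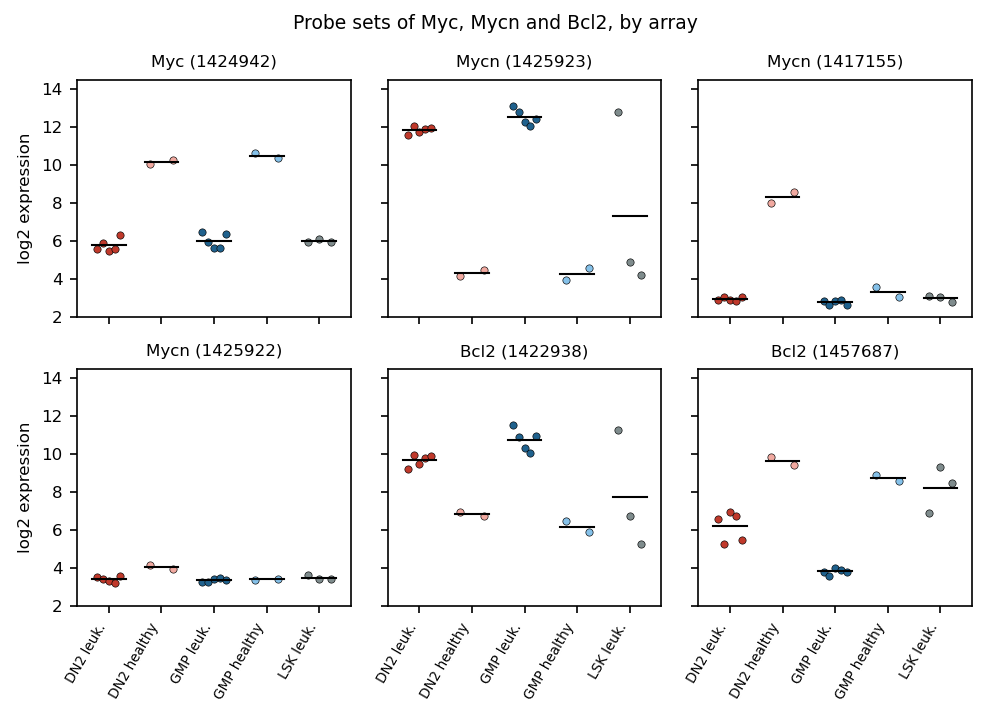
Log2 expression of probe sets of Myc, Mycn and Bcl2 in each of the 17 arrays (points) with the group mean (bar), for leukemias labelled DN2-derived, healthy DN2, leukemias labelled GMP-derived, healthy GMP and leukemias labelled LSK-derived. Mycn 1425923 and Bcl2 1422938 are high in all 10 DN2-labelled and GMP-labelled leukemia arrays and in 1 of 3 LSK-labelled arrays, while Mycn 1417155, Bcl2 1457687 and Myc are lower in leukemia than in healthy DN2.

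Pvt1, a long non-coding RNA gene that stands next to Myc on chromosome 15, moved opposite to its neighbour. Pvt1 was 8.76, 9.13, 8.57, 8.68 and 9.38 in DN2-labelled leukemia, against 5.06 and 5.45 in healthy DN2, and 8.43 to 9.44 in GMP-labelled leukemia, against 4.89 and 4.77 in healthy GMP. The groups did not overlap, all 4 of its probe sets were higher in both origins, and the average rise was 3.83 ± 0.20 (SE, limma adjusted p = 2.20e-08). Around the Myc proteins, Mxd1, which encodes a competitor of Myc for Max that is known from maturing cells, was 8.57, 8.02, 8.30, 9.17 and 6.41 in DN2-labelled leukemia, against 6.96 and 6.43 in healthy DN2. It was 11.07, 8.79, 11.16, 9.55 and 11.32 in GMP-labelled leukemia, against 6.27 and 6.51 in healthy GMP. DN2-labelled leukemia array 5 overlapped healthy DN2 and the other leukemia arrays did not, and the average rise was 2.69 ± 0.53 (SE, limma adjusted p = 0.00171). Of 11 genes of the Myc and Max network tested, 6 were called higher and 2 lower, beside 14.7% and 22.4% of all genes tested. Mycn and Mxd1 were shared higher and Myc shared lower, beside 2.65% and 5.11% of all genes tested. Mxd4 (1.03), Mxi1 (0.98) and Mnt (0.68), further repressors of the network, and Mlxip (0.98) were called higher with less than 2-fold in 1 or both origins, and Mxd3 was called lower (−1.01). Ribosome biogenesis is a process that Myc is known to drive. Of 21 such genes tested, 0 were shared, and at 7.76% over all genes tested so short a list would hold few. For the average, limma called 2 higher, Wdr43 (0.57) and Polr1a (0.39), and 0 lower, beside 14.7% and 22.4% of all genes tested. The median over the list was 0.09, beside −0.05 over all genes tested.

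The p53 and Arf list held a larger portion of shared higher genes than any other list drawn. Of 17 genes tested, 7 were shared higher and 0 shared lower, 12 were called higher for the average, and the list median was 1.46. Among all genes tested 2.65% were shared higher, 5.11% shared lower and 14.7% called higher. Zmat3, a p53 target that encodes an RNA-binding protein, was 7.51, 7.45, 7.49, 7.29 and 7.73 in DN2-labelled leukemia, against 4.15 and 4.06 in healthy DN2. It was 9.05, 8.82, 9.36, 7.83 and 9.72 in GMP-labelled leukemia, against 4.05 and 4.07 in healthy GMP. Every leukemia array lay above every healthy array, and the average rise was 4.14 ± 0.26 (SE, limma adjusted p = 8.17e-08). Bbc3, which encodes the BH3-only protein Puma, was 7.48 to 9.04 in DN2-labelled leukemia, against 5.55 and 4.70 in healthy DN2, and 8.13 to 9.52 in GMP-labelled leukemia, against 5.38 and 5.34 in healthy GMP. Its average rise was 3.21 ± 0.29 (SE, limma adjusted p = 3.32e-06). Pmaip1, which encodes the BH3-only protein Noxa, rose by 2.27 ± 0.36 (SE, adjusted p = 4.18e-04) and did not overlap in either origin. Perp, a membrane protein of cell junctions and a p53 target, rose by 3.76, with 1.87 in DN2 and 5.65 in GMP. Trp53inp1 rose by 3.54 and Btg2, which slows division, by 1.96, and both lay close to the limit in DN2 (1.02 and 1.08) and further from it in GMP (6.06 and 2.83).

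Cdkn2a, the locus of Arf and of the kinase inhibitor p16Ink4a, which this probe set was not shown to separate, varied widely among leukemia arrays. It was 6.91, 3.77, 5.89, 4.85 and 6.32 in DN2-labelled leukemia, against 3.30 and 3.46 in healthy DN2, and 8.97, 4.68, 8.48, 5.44 and 8.37 in GMP-labelled leukemia, against 3.17 and 3.65 in healthy GMP. DN2-labelled leukemia array 2 and GMP-labelled leukemia arrays 2 and 4 were the lowest of their groups and still above the healthy arrays. The value of DN2-labelled leukemia array 2 (3.77) was at background, however, as were the healthy arrays. The average rise was 2.97 ± 0.79 (SE, limma adjusted p = 0.0106), the DN2 difference of 2.16 did not pass on its own (adjusted p = 0.182), and with the LSK-labelled arrays in the fit the average had an adjusted p of 0.0516. Cdkn1a, the p53 target that encodes the kinase inhibitor p21, went opposite ways, with −2.58 in DN2 and 3.28 in GMP. Mdm2, the p53 inhibitor that p53 itself induces, was called for the average (0.96), with 0.20 in DN2 and 1.71 in GMP. Phlda3 (0.29 in DN2 and 4.45 in GMP) and Ccng1 (0.68 and 2.23) likewise passed 2-fold in GMP alone.

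Of 14 genes of the Bcl2 family tested, 5 were shared higher and 0 shared lower, and 7 were called higher and 4 lower for the average. Over all genes tested 2.65% were shared higher, 14.7% called higher and 22.4% called lower. The 5 shared genes were Bcl2, Bbc3, Pmaip1, Bcl2l11 and Bcl2a1a. Bcl2 is itself an oncogene of the labels and left the shared change with its probe sets averaged. Bbc3 and Pmaip1 also count in the p53 and Arf list, so the 2 lists are not separate evidence. Bcl2l11, which encodes the BH3-only protein Bim, was 12.45, 12.24, 12.26, 12.38 and 11.70 in DN2-labelled leukemia, against 8.69 and 8.19 in healthy DN2, and 10.94, 9.94, 9.65, 8.44 and 9.82 in GMP-labelled leukemia, against 6.86 and 6.55 in healthy GMP. The groups did not overlap, all 5 of its probe sets were higher in both origins, and the average rise was 3.41 ± 0.33 (SE, limma adjusted p = 6.37e-06). Bcl2a1a, a relative of Bcl2 that protects from apoptosis and has near-identical copies the probe set may also read, rose by 3.97 ± 0.45 (SE, adjusted p = 2.60e-05), more in DN2 (5.49) than in GMP (2.46). Bmf, a further BH3-only gene, was called for the average (2.49) and lay at 0.98 in DN2 and 3.99 in GMP. The 4 called lower included Bcl2l2 (−1.34) and Bcl2l1 (−0.49), both protective, and the others are not named here. Mcl1 differed by 0.53 and was called higher.

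**Figure D3:**
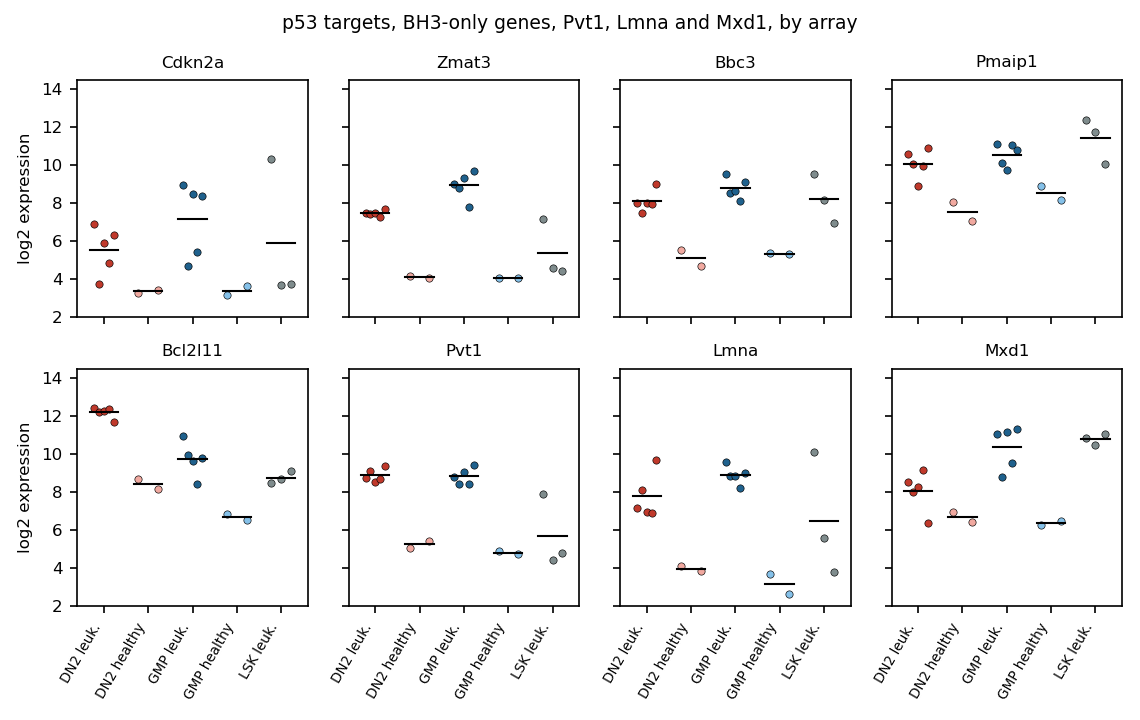
Log2 expression of genes of the p53 pathway (Cdkn2a, Zmat3), BH3-only genes (Bbc3, Pmaip1, Bcl2l11), Pvt1, Lmna and Mxd1 in each of the 17 arrays (points) with the group mean (bar), in the order leukemia labelled DN2-derived, healthy DN2, leukemia labelled GMP-derived, healthy GMP, leukemia labelled LSK-derived. Zmat3 is at 7.29 or above in all 10 DN2-labelled and GMP-labelled leukemia arrays and at 4.15 or below in all 4 healthy arrays, while Cdkn2a spreads over 3.77 to 8.97 in leukemia.

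Genes of stem cells and progenitors were lower in leukemia. Of 19 tested, 9 were shared lower and 0 shared higher, 16 were called lower for the average, and the list median was −1.78. Among all genes tested 5.11% were shared lower, 2.65% shared higher and 22.4% called lower. Cd34, a surface sialomucin of early progenitors, was 2.97, 2.89, 2.63, 2.51 and 2.65 in DN2-labelled leukemia, against 9.08 and 9.01 in healthy DN2. It was 2.71, 2.52, 2.80, 2.87 and 3.16 in GMP-labelled leukemia, against 10.06 and 9.84 in healthy GMP. All 10 leukemia arrays were under the array medians, and the average difference was −6.73 ± 0.13 (SE, limma adjusted p = 2.52e-12). Kit was 3.19, 3.26, 3.41, 3.56 and 3.42 in DN2-labelled leukemia, against 9.90 and 9.69 in healthy DN2, and 3.26, 6.81, 3.30, 6.67 and 3.18 in GMP-labelled leukemia, against 9.54 and 9.46 in healthy GMP. GMP-labelled leukemia arrays 2 and 4 kept a level well above background yet below every healthy array, and the average difference was −5.64 ± 0.65 (SE, adjusted p = 2.83e-05). Kit is a marker of both healthy cell types and Cd34 one of healthy GMP. The falls of Kit, and of Cd34 in GMP, are therefore not independent results. Tal1, a transcription factor of early blood cells, was 3.25 to 3.89 in DN2-labelled leukemia, against 6.76 and 6.86 in healthy DN2, and 3.41 to 3.69 in GMP-labelled leukemia, against 7.12 and 7.31 in healthy GMP, an average of −3.43 ± 0.12 (SE, adjusted p = 3.19e-10). The homeobox genes Hoxa7 (−2.32), Hoxa5 (−2.10) and Meis1 (−2.56), whose products keep progenitors immature, were at least 2-fold lower in both origins and called for the average, as were Myb (−1.60), Flt3 (−1.78) and Egfl7 (−1.77). Flt3 overlapped between leukemia and healthy arrays in GMP, and without healthy GMP array 1 its adjusted p was 0.0740. Hoxa9 was called for the average and missed the limit in DN2 (−0.74). Bmi1 (−0.08) and Hlf (−0.11) were not called.

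The largest falls outside that list were ranked by the smaller of the 2 origin differences. Their genes therefore had to be high in both healthy progenitors, which is not a result about them. Cpa3, carboxypeptidase A3 of mast cells and early progenitors, was 3.03 to 3.28 in DN2-labelled leukemia, against 12.22 and 12.17 in healthy DN2, and 3.02 to 3.30 in GMP-labelled leukemia, against 10.04 and 10.11 in healthy GMP. The average difference was −7.96 ± 0.09 (SE, limma adjusted p = 7.88e-15). Beside Myc, further large shared falls were those of Cnn3, a calponin of the actin skeleton (−6.85 on average), Bex6 (−6.31), 4930519L02Rik (−6.39), Serpinf1, a secreted serpin (−5.21), Tmem176b (−4.99) and its neighbour Tmem176a (−4.61), Cd93, a lectin-like receptor (−5.75), Npl, an enzyme of sialic acid breakdown (−5.01), Tceal8 (−4.87), Rab38, a small GTPase (−4.65), and the mucin Muc13 (−4.84). None of these overlapped between leukemia and healthy arrays of an origin, which was a condition for naming them. Within GMP-labelled leukemia, Tceal8 kept 7.39 and 6.70 in arrays 2 and 4, while the other 3 held 3.12 to 3.44. Both leukemia means were at or below the median of all values for 83 of the 585 shared lower genes.

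**Figure D4:**
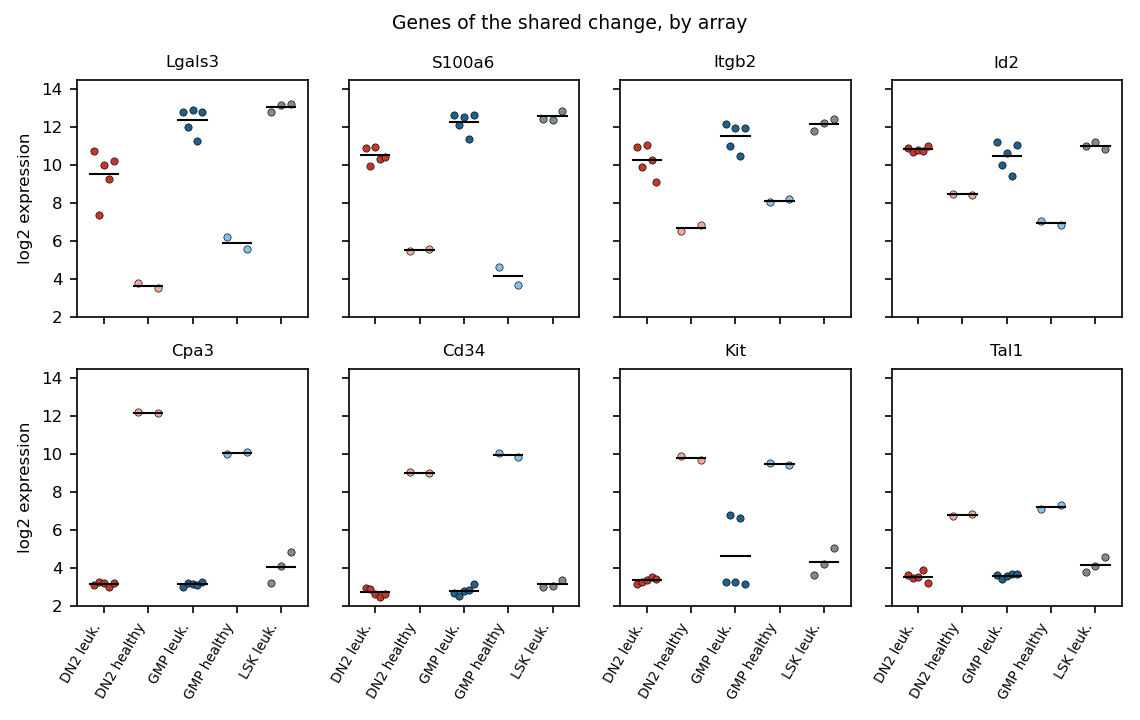
Log2 expression of 4 shared higher genes (Lgals3, S100a6, Itgb2, Id2) and 4 shared lower genes (Cpa3, Cd34, Kit, Tal1) in each of the 17 arrays (points) with the group mean (bar), in the order leukemia labelled DN2-derived, healthy DN2, leukemia labelled GMP-derived, healthy GMP, leukemia labelled LSK-derived. Leukemia and healthy arrays do not overlap in either origin, and Kit reaches 6.81 and 6.67 in 2 of the 5 GMP-labelled leukemia arrays, against 9.46 or above in healthy cells.

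Genes of DNA replication and nucleotide synthesis were lower in leukemia than in the dividing progenitors. Of 22 tested, 14 were shared lower and 0 shared higher, 20 were called lower, and the list median was −1.56. The shares over all genes tested were 5.11% shared lower, 2.65% shared higher and 22.4% called lower. Mcm3, a subunit of the replicative helicase, was 7.14, 7.18, 8.23, 7.82 and 7.05 in DN2-labelled leukemia, against 10.06 and 9.93 in healthy DN2, and 7.20, 7.81, 7.51, 8.80 and 7.30 in GMP-labelled leukemia, against 9.67 and 9.64 in healthy GMP. Array 3 of DN2-labelled leukemia and array 4 of GMP-labelled leukemia were the highest of their groups and still below every healthy array, and the average difference was −2.22 ± 0.29 (SE, limma adjusted p = 7.82e-05). All 6 subunits of the helicase, Mcm2 to Mcm7, were in the shared change, with averages between −2.22 and −1.06. So were Gins1 (−2.26) and Gins2 (−2.45), which join the helicase, Cdc6 (−2.22) and Mcm10 (−2.19), which load and start it, and Rrm1, Rrm2, Tk1 and Tyms, which supply deoxynucleotides. The mean level over the list was 8.77, 8.49, 9.63, 9.02 and 8.00 in DN2-labelled leukemia, against 10.46 and 10.49 in healthy DN2, and 8.56, 9.43, 9.07, 10.18 and 8.97 in GMP-labelled leukemia, against 10.41 and 10.50 in healthy GMP.

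Cell cycle genes were also lower. Of 27 tested, 7 were shared lower and 17 called lower, while 1 was shared higher and 2 called higher. The shares over all genes tested were 5.11% and 22.4% for lower, and 2.65% and 14.7% for higher. The list median was −1.54, with −1.995 in DN2 and −0.81 in GMP. Cdk6, the kinase that starts the cycle in progenitors, fell by 2.44 ± 0.27 (SE, limma adjusted p = 1.79e-05), with 9.10 to 9.58 in DN2-labelled leukemia, against 12.42 and 12.31 in healthy DN2, and 9.10 to 10.77 in GMP-labelled leukemia, against 11.80 and 11.58 in healthy GMP. The mitotic genes Ccnb2 (−2.15), Aurkb (−2.04), Bub1 (−2.03), Ccna2 (−1.96), Top2a (−1.95) and Birc5 (−1.83) had average falls that passed, while in GMP none of these 6 passed on its own (limma adjusted p = 0.212 for Top2a to 0.358 for Bub1). Ccnb2 was 7.83, 5.62, 9.29, 7.58 and 4.60 in DN2-labelled leukemia, against 10.02 and 9.88 in healthy DN2, with array 5 lowest and array 3 nearest to the healthy level. Leaving out any 1 healthy array ended the call of Ccnb2 and of Birc5 (adjusted p between 0.0560 and 0.0843), and leaving out healthy DN2 array 2 or healthy GMP array 2 ended that of Aurkb (0.0516 and 0.0504). Mki67, a marker of dividing cells, was not called (−1.37, adjusted p = 0.0649). The 1 shared higher gene was Cdkn2b, which encodes a kinase inhibitor and stands beside Cdkn2a (1.16, adjusted p = 0.0476).

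Chromatin modifiers gave 3 shared lower genes of 20 tested and 1 shared higher, beside 5.11% and 2.65% of all genes tested. Dnmt3b, a DNA methyltransferase, was 8.01 to 8.19 in DN2-labelled leukemia, against 10.25 and 10.44 in healthy DN2, and 6.40 to 7.39 in GMP-labelled leukemia, against 8.75 and 8.68 in healthy GMP, an average of −1.99 ± 0.17 (SE, limma adjusted p = 1.71e-06). Dnmt3a, the other de novo methyltransferase (−1.59), and Ezh2, the methyltransferase of Polycomb complex PRC2 (−1.54), were lower without overlap in either origin. Cbx7, a subunit of Polycomb complex PRC1, was 7.45 to 9.38 in DN2-labelled leukemia, against 4.48 and 5.24 in healthy DN2, and 5.31 to 7.95 in GMP-labelled leukemia, against 5.02 and 5.18 in healthy GMP. It rose by 2.51 ± 0.45 (SE, adjusted p = 9.25e-04), while the GMP difference of 1.29 did not pass on its own (adjusted p = 0.155). Ezh1, a relative of Ezh2, was called higher (0.77) below the 2-fold limit. Spred1 (−3.11) and Spred2 (−2.04), inhibitors of the Ras and MAP kinase pathway, were the 2 shared lower genes among 20 of cytokine feedback. In glycolysis, Pfkl (−1.46) and Pfkm (−1.39), subunits of phosphofructokinase, fell and the glucose transporter gene Slc2a3 rose (2.55), and these were the 3 shared genes of 20 tested. With probe sets averaged, Spred2, Pfkl, Slc2a3 and Cbx7 were not in the shared change (average differences of −0.43, −0.78, 1.51 and 1.20).

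Outside the p53 and Bcl2 lists, Lgals3 and S100a6 were among the largest shared rises. Lgals3, which encodes galectin-3 of mature myeloid cells, was 10.76, 7.38, 10.00, 9.29 and 10.22 in DN2-labelled leukemia, against 3.81 and 3.52 in healthy DN2. It was 12.80, 12.04, 12.89, 11.30 and 12.80 in GMP-labelled leukemia, against 6.24 and 5.59 in healthy GMP. The groups did not overlap, and the average rise was 6.16 ± 0.51 (SE, limma adjusted p = 1.43e-06). S100a6, a calcium-binding protein gene, was 9.95 to 10.98 in DN2-labelled leukemia, against 5.52 and 5.61 in healthy DN2, and 11.39 to 12.66 in GMP-labelled leukemia, against 4.63 and 3.72 in healthy GMP. It rose by 6.53 ± 0.27 (SE, adjusted p = 1.97e-09). Further shared rises without overlap were Ahnak, a large scaffold protein (5.14), Lmna, which encodes lamin A and C of the nuclear envelope (4.77), the metalloprotease gene Adam19 (4.70), the lipid phosphodiesterase gene Smpdl3b (4.54), Slfn2 of the Schlafen family (4.16), Rap1gap2, which inactivates the GTPase Rap1 (4.01), and Reck, an inhibitor of metalloproteases (3.94). Id2, an inhibitor of E-protein transcription factors in lymphoid and myeloid cells, was 10.72 to 11.00 in DN2-labelled leukemia, against 8.52 and 8.42 in healthy DN2, and 9.45 to 11.25 in GMP-labelled leukemia, against 7.08 and 6.86 in healthy GMP. It rose by 2.95 ± 0.26 (SE, adjusted p = 3.12e-06).

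Of 23 genes of adhesion and homing, 6 were shared higher and 0 shared lower, and 11 were called higher and 1 lower. Among all genes tested these shares were 2.65%, 5.11%, 14.7% and 22.4%. Itgb2, the integrin beta chain shared by CD11a and CD11b, was 10.97, 9.92, 11.09, 10.27 and 9.13 in DN2-labelled leukemia, against 6.54 and 6.84 in healthy DN2, and 10.52 to 12.18 in GMP-labelled leukemia, against 8.06 and 8.23 in healthy GMP. It rose by 3.48 ± 0.37 (SE, limma adjusted p = 1.44e-05). Its ligand Icam1 (1.48 in DN2 and 1.53 in GMP), the sphingosine phosphate receptor gene S1pr4 (1.78), the gut-homing integrin gene Itgb7 (1.84) and the chemokine receptor gene Cxcr3 (3.26) rose as well. The Itgb7 difference of 1.38 in GMP did not pass on its own (limma adjusted p = 0.135). For Cxcr3, leukemia and healthy arrays overlapped in at least 1 origin. Itgam rose by 2.61 ± 0.78 (SE, adjusted p = 0.0205), but in DN2 its difference of 1.10 came from arrays 1 and 3, arrays 2, 4 and 5 lay below both healthy DN2 arrays, and leaving out any 1 healthy array ended the call (adjusted p between 0.0543 and 0.0785). Itgam was a gene of the sort, so its rise is not an independent result.

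Of 27 cytokine receptor genes, 2 were shared higher and 2, Kit and Flt3, shared lower, 8 were called higher and 6 lower, and the list median was 0.01. Beside these stand 2.65% shared higher, 5.11% shared lower, 14.7% called higher and 22.4% called lower over all genes tested. The lower counts of the list lie near those shares. The 2 shared rises were the chains of the interleukin 18 receptor. Il18r1 was 10.57 to 11.41 in DN2-labelled leukemia, against 5.66 and 4.73 in healthy DN2, and 5.65 to 8.39 in GMP-labelled leukemia, against 4.26 and 3.58 in healthy GMP, an average of 4.72 ± 0.43 (SE, limma adjusted p = 3.51e-06). Il18rap rose by 3.23 ± 0.43 (SE, adjusted p = 1.02e-04). Btla, an inhibitory receptor of lymphocytes, rose by 4.29 ± 0.29 (SE, adjusted p = 1.73e-07), and Cd80, a ligand of CD28 and CTLA4, by 4.13 ± 0.45 (SE, adjusted p = 1.83e-05). Cd3d, a CD3 chain, was 12.17 to 12.55 in DN2-labelled leukemia, against 5.13 and 5.41 in healthy DN2, and 7.08, 6.95, 8.53, 7.41 and 8.07 in GMP-labelled leukemia, against 3.85 and 3.44 in healthy GMP. It rose in both origins (average 5.52 ± 0.25, SE, adjusted p = 5.35e-09), while Cd3e and Cd3g rose in DN2 (2.90 and 1.52) and differed by −0.12 and 0.31 in GMP. Over 15 genes of T-cell receptor signalling, the mean level was 9.86 to 10.25 in DN2-labelled leukemia, against 7.44 and 7.39 in healthy DN2, and 4.30 to 4.55 in GMP-labelled leukemia, against 4.44 and 4.32 in healthy GMP. Over 13 NK and cytotoxic genes it was 8.59 to 11.29, against 5.26 and 5.24, in the DN2 pair, and 3.52 to 4.04, against 4.39 and 4.41, in the GMP pair. Of these 2 lists Cd3d was the 1 shared gene.

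Of 16 late neutrophil genes, 13 were called higher for the average and 4 were shared higher, beside 14.7% and 2.65% of all genes tested. The list median was 5.11 in GMP and 0.27 in DN2. The mean level over the list was 5.60, 3.82, 4.39, 4.21 and 5.06 in DN2-labelled leukemia, against 4.07 and 4.16 in healthy DN2, and 11.98 to 12.89 in GMP-labelled leukemia, against 7.48 and 7.57 in healthy GMP. Pglyrp1, an antibacterial granule protein, rose by 2.50 ± 0.43 (SE, limma adjusted p = 6.80e-04) without overlap in either origin. S100a8, S100a9 and Chil3 were highest in DN2-labelled leukemia arrays 1 and 5. Chil3 was 6.81, 3.60, 3.53, 3.57 and 8.02 in DN2-labelled leukemia, against 3.11 and 3.08 in healthy DN2. S100a8 was not called for the average (1.72, adjusted p = 0.0741), but passed without DN2-labelled leukemia array 2 (adjusted p = 0.0353).

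Markers of other cells that a spleen sample could hold are given beside the 7.76% of all genes tested that were shared. Over 6 B cell genes the mean was 4.08 to 5.78 in DN2-labelled leukemia, against 4.60 and 4.46 in healthy DN2, and 3.88 to 4.07 in GMP-labelled leukemia, against 4.37 and 4.64 in healthy GMP. Cd79b, a B-cell receptor chain also read in both progenitors here, was the 1 shared gene of that list and fell (−2.41). Over 9 erythroid genes the mean was 5.48 to 6.44, against 5.33 and 5.49, in the DN2 pair, and 5.21 to 6.47, against 6.33 and 5.98, in the GMP pair, with 0 shared. Of 11 platelet and mast cell genes 3 were shared lower (Cpa3, Mcpt8 and Itga2b) and 0 shared higher. Of 18 monocyte and macrophage genes Cd14 and Cd68 were shared and called higher, Fcgr4 was shared and not called (2.68, adjusted p = 0.0756), and F13a1 was shared lower. Cd68 was 8.83, 5.04, 6.32, 5.90 and 6.26 in DN2-labelled leukemia, against 5.14 and 5.15 in healthy DN2, and Fcgr4 was 9.76, 3.02, 3.19, 5.46 and 3.02, against 3.12 and 3.03. Array 1 was the highest for both, and without it their DN2 differences were 0.74 and 0.60, so that neither was in the shared change, and the Fcgr4 average was 2.07 (adjusted p = 0.0322). Without DN2-labelled leukemia array 5, Cd14 likewise left it (0.93 in DN2). The monocyte mean was 6.66 in DN2-labelled leukemia array 1 at the highest and 3.95 at the lowest of its group, against 4.44 and 4.31 in healthy DN2. The part of these cells in the shared change was not tested.

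**Figure D5:**
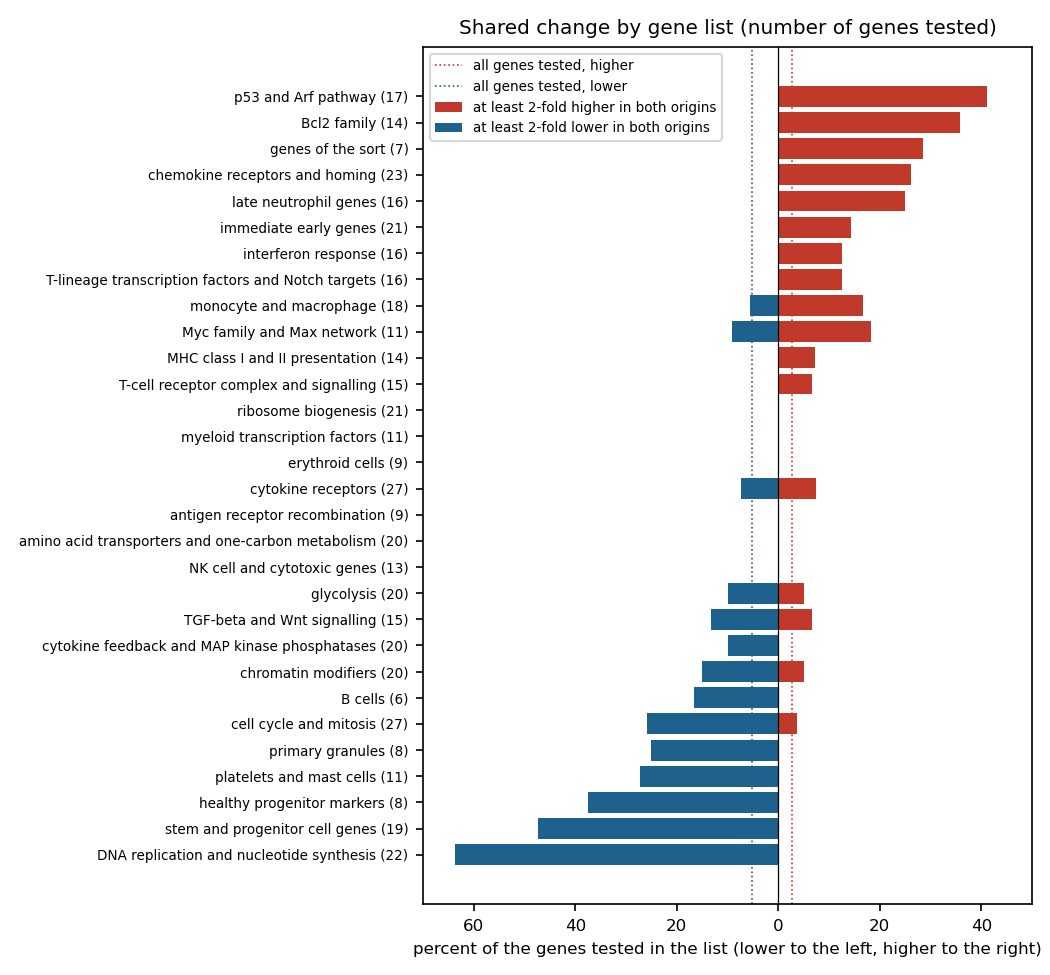
Percent of the genes tested in each list that were at least 2-fold higher in both origins (right, red) or at least 2-fold lower in both origins (left, blue), with the number of genes tested in parentheses and dotted lines at the percents over all genes tested (2.65 and 5.11). Lists with under 6 genes tested are left out, and DNA replication, with 14 of 22 lower, and p53 and Arf, with 7 of 17 higher, stand at the ends.

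The size of the change differed between the origins for 1752 genes (15.3% of all tested, limma interaction of origin and leukemia). Among the shared genes it did for 29 of 303 higher and 85 of 585 lower, so both origins moved the same way by different amounts. In 15 of the 29 the rise was larger in DN2, and in 51 of the 85 the fall was larger in DN2. Fpr2, a formyl peptide receptor of neutrophils, was 11.99, 11.34, 12.69, 10.42 and 12.56 in GMP-labelled leukemia, against 3.32 and 2.99 in healthy GMP. It was 7.67, 3.16, 3.65, 3.73 and 3.32 in DN2-labelled leukemia, against 3.45 and 3.13 in healthy DN2, so array 1 alone carried its DN2 difference of 1.01. Without it the DN2 differences of Fpr2, Ifitm6 and Slfn4, which had the same array high, were 0.17, 0.34 and 0.58. Ifitm6 and Slfn4 differed between origins by −5.19 and −5.11 (DN2 minus GMP). Among falls, Scin, an actin-severing protein gene, and Myl10, a myosin light chain gene, were high in healthy DN2 (12.23 and 12.13, and 11.95 and 11.34), lower in healthy GMP (5.94 and 5.48, and 3.65 and 4.72) and at background in all 10 leukemia arrays. Without healthy GMP array 2, the GMP difference of Myl10 was −0.58. Sox4, a transcription factor of progenitors, was 10.41 to 11.74 in DN2-labelled leukemia, against 12.90 and 12.84 in healthy DN2, and 2.99 to 5.15 in GMP-labelled leukemia, against 11.56 and 11.00 in healthy GMP. Its fall was larger in GMP by 6.04 ± 0.73 (SE, limma adjusted p = 9.32e-05). For Mycn (adjusted p = 0.215), Myc (0.927), Zmat3 (0.0668), Lgals3 (0.739) and Kit (0.457) no difference between the origins passed, which does not show that they moved alike.

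The 3 LSK-labelled leukemia arrays carried some of the shared genes and not others. Their median level over the shared higher genes was 8.69, 8.89 and 8.96, and over the shared lower genes 5.60, 5.86 and 6.42, above every healthy array for the first and below every healthy array for the second. The shared genes were chosen against these same healthy arrays. Such positions, here and in the single genes below, therefore describe the LSK-labelled arrays and do not test the shared change. Lgals3 was 12.81, 13.20 and 13.24, S100a6 12.47, 12.41 and 12.86, Itgb2 11.79, 12.24 and 12.46, Cd34 3.03, 3.06 and 3.39, and Myc 5.98, 6.13 and 5.95. In these genes all 3 arrays lay on the same side of every healthy array as the other leukemias. Array 1 had Mycn at 12.82, Bcl2 at 11.30, Pvt1 at 7.92, Zmat3 at 7.16, Lmna at 10.14 and Cdkn2a at 10.34, all above every healthy array, although Pvt1 and Zmat3 lay below the lowest of the other leukemias (8.43 and 7.29). Arrays 2 and 3 had Mycn at 4.91 and 4.22, Bcl2 at 6.75 and 5.27, Pvt1 at 4.41 and 4.83, and Zmat3 at 4.61 and 4.42, in each case nearer to the healthy arrays than to the 10 other leukemia arrays, and Cdkn2a at 3.70 and 3.75, below all 10. Their second Bcl2 probe set, 1457687, was 9.32 and 8.48, against 6.90 in array 1. They also had Cd93 at 8.95 and 9.40, between the other leukemias (7.80 at the highest) and the healthy arrays (10.65 at the lowest), and Tmem176b at 9.16 and 9.79, of which the second lay within the healthy range, while Pmaip1 (11.78 and 10.09) and Mxd1 (10.51 and 11.09) lay within or above the range of GMP-labelled leukemia.

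The promoter sequence CACGTG was looked for in RefSeq windows of 250 bases before to 50 bases after each gene start (GRCm38.p6). A window was at hand for 252 of the 303 shared higher genes and 469 of the 585 shared lower genes. At least 1 window held the motif, which reads the same on both strands, for 10.7% of the shared higher genes, 12.6% of the shared lower genes and 11.8% of all tested genes with a window (1095 of 9306). Both shares of shared genes lie near that of all genes. Of 32 named genes with a window, 6 held the motif (Adam19, Npl, Btla, S100a6, Smpdl3b and Tceal8). It stood before the start in 2 of them, Adam19, which rose, and Npl, which fell. Their 250 bases before the start are shown, on the strand of the gene and with the motif in capitals, as an example from each direction of the shared change. A match is a description of the letters and not a site of binding. The Adam19 window is chr11:46054252-46054501 (plus strand), 1 of 3 windows of that gene and the only one with the motif, which begins at −130. The Npl window is chr1:153549715-153549964 (minus strand), and the motif begins at −51.
Adam19: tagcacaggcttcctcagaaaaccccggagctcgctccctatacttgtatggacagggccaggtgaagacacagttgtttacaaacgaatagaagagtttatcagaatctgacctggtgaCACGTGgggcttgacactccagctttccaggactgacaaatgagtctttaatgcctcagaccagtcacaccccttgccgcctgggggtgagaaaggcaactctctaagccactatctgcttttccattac
Npl: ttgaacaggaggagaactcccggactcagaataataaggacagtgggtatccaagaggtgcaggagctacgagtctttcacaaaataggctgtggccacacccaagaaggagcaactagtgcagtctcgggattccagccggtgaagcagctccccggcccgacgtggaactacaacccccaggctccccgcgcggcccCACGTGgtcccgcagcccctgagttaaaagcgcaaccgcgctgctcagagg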

How the data were processed

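RNA (300 ng per sample) was hybridised to Affymetrix PM arrays, 1 array per sample, per the labels. The authors deposited log2 expression per probe set, summarised by RMA with the affy package per the submitters' processing notes, with no version stated. RMA corrects background and sets all arrays to 1 distribution, so a change common to most genes cannot be seen. Of 28898 probe sets with 1 gene symbol in the platform annotation, the one with the highest mean over the 14 arrays stood for each of 17097 genes, and 11449 genes with a group mean above 3.83, the median of all values, were tested. A gene that passed through the group where it is high had to differ, so counts over lists describe those tested.

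limma 3.58.1 in R 4.3.3 fitted 4 groups over 14 arrays, with the Benjamini-Hochberg adjustment at 0.05, for the change in each origin, their average and their difference. The self-test on simulated data was run. The limit of 2-fold, the members and the 32 gene lists were chosen with earlier results of these data known. Genes were named by a rule: Myc, Mycn, Mycl, Bcl2 and genes of the sort, the 15 largest shared rises and falls without overlap, up to 4 shared genes per list, those at the limit, and the 3 largest origin differences per direction. Lack of overlap was thus a condition for those 15 per direction and is not a result about them. Further list members were named after their values were seen. Mycl and Cd4 stayed at background. Sequences are from RefSeq (GRCm38.p6).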

Additional observations from a re-analysis of the deposited data

Results flagged for a closer look

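In 15 of 220 gene and group pairs with 5 arrays, 1 array lay apart from the other 4 by Dixon's criterion, which chance meets in about 1 in 20 groups. In DN2-labelled leukemia, array 1 was high for Fpr2 (7.67), Ifitm6 (7.90), Tmem176a (5.51) and Tmem176b (6.41). Array 2 was high for Eif2s3y (10.05) and Cnn3 (5.62), and array 4 was low for 4930519L02Rik (2.90). Array 5 was low for Bcl2l11 (11.70) and Dnmt3a (6.25) and high for Muc13 (3.78) and Pgrmc1 (9.66). In GMP-labelled leukemia, array 2 was high for Eif2s3y (9.89), Muc13 (4.76) and Sox4 (5.15), and array 4 was high for Bex6 (5.43).

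The change differed between the origins, by the interaction term of limma, for 23 of the named genes, with values as the DN2 difference minus the GMP difference. Positive values were found for Ly6c1 (6.23), a gene of the Gr1 antigen that healthy GMP already carried, and for Sox4 (6.04), Cd8b1 (3.24), Cd3d (3.12), Bcl2a1a (3.03), Cd3e (3.01), Pecam1 (1.44), Cd3g (1.21), Npl (0.90), Cd34 (0.83) and Rab38 (0.58). Negative values were found for Fpr2 (−7.63), Myl10 (−7.12), Scin (−6.47), Ifitm6 (−5.19), Slfn4 (−5.11), S100a6 (−3.15), Slc2a3 (−2.71), Cd93 (−2.23), Cpa3 (−2.10), 4930519L02Rik (−1.83), Bcl2 (−1.76) and Spred1 (−1.50).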

How the results depend on the processing

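None of the 888 shared genes was shared in the opposite direction under the alternatives run, and 666 to 888 of them stayed in the shared change except at the 4-fold limit. At 1.5-fold the shared change held 1890 genes (669 higher, 1221 lower), and at 4-fold 189 (75 and 114), of which 175 passed in both origins (70 and 105). Array weights gave 7026 calls for the average (3050 and 3976), 888 called in both origins (308 higher) and 5185 origin differences. A fit with no origin term gave 1894 calls (606 and 1288). Without GMP-labelled leukemia arrays 2 and 4, chosen after seeing the data, 3272 origin differences were called. The causes were not tested. Bcl2 turned to −0.25 with its probe sets averaged, since they move in opposite directions. Leaving out 1 array at a time gave 2843 to 4797 calls for the average (1073 to 1924 higher, 1770 to 2873 lower), 807 to 968 shared genes (276 to 326, 526 to 642), 299 to 707 called in both origins (90 to 213, 203 to 494) and 993 to 2188 origin differences. Leaving out any 1 healthy array also ended the calls of S100a9, F13a1, Irf7 and Pafah1b1. The lowest counts of calls came without 1 healthy array, as 2 arrays per group are few, and the highest without GMP-labelled leukemia array 4. With the replicate number as a block, 3656 genes were called for the average, 1036 were shared, 629 passed in both origins and 1739 differed between origins. Same-numbered leukemia arrays deviated together by r of −0.12 to 0.16. The highest was that of number 2, the pair with Y-linked signal. These few values cannot settle whether the numbers pair the samples. Differences that reach background are compressed, which limits the size of falls.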
